A study of Mus musculus with 36 samples.

Results

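The genes described here are the ligands of the TGF-beta family and the secreted proteins that bind or oppose them, 34 genes of the 22392 that carry an Entrez identifier in the mouse annotation (GENCODE vM21, mm10). They were chosen by name and are 3 TGF-beta ligands, 8 BMP ligands, 10 GDF ligands, 5 activin or inhibin subunits, Nodal and Amh, the 2 Lefty inhibitors and 4 secreted antagonists (Nog, Chrd, Grem1 and Fst). All 34 were found in the annotation and all lie on autosomes. For each mouse, a gene was given a mark when a ChIP-Seq peak of that mark overlapped the window of 3 kb on either side of any of its transcription start sites (TSSs) by at least 1 bp.

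ChIP-Seq pulls down chromatin with an antibody to a histone mark. Peaks are the places where that DNA is enriched over the input. H3K27me3 (K27me3) and H3K4me3 (K4me3) are described here in whole pancreata of 6 adult mice, 3 of each of 2 genotypes, which received tamoxifen (TX) at 2 to 4 months of age and were examined 22 days after TX. Control mice were labelled Wildtype and, per the study's methods, were C57BL/6 with or without the Mist1creERT allele. The other genotype was Mist1creERT/+EZH2[delta]SET (Ezh2ΔSET below). Mist1creERT is a TX-inducible Cre expressed in acinar cells, the enzyme-secreting cells of the pancreas. The Cre removes Ezh2 exons 16 to 19, which encode the SET domain, in those cells only, so duct, islet, stromal, vascular and immune cells of the same tissue keep their alleles. In whole tissue, fewer cells with a mark and less of the mark per cell cannot be told apart. The deletion itself cannot be checked in lists of peaks.

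TGF-beta family ligands are secreted dimers that join type I and type II receptor kinases, which phosphorylate Smad proteins that enter the nucleus. TGF-beta, activins and Nodal act mainly through Smad2 and Smad3, and BMPs and many GDFs through Smad1, Smad5 and Smad9. Noggin, chordin, gremlin and follistatin bind ligands outside the cell and keep them from their receptors. K27me3, which EZH2 and its Polycomb complex deposit, is linked to gene repression, and K4me3 is found at the starts of active genes. Promoters that carry both are called primed or bivalent, and genes for developmental signals, this family among them, are classic Polycomb targets.

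The deposited lists held 21420 to 31274 K27me3 peaks and 17400 to 25886 K4me3 peaks per mouse. They give positions only, so read depth is unknown. The narrowest peak was 5001 bp in every K27me3 list and 501 bp in every K4me3 list. Control replicate 2 stood apart, with K27me3 near a TSS at 24.5% of all 22392 genes against 10.6% to 15.5% in the other 5 mice, and with the fewest peaks of both marks. The main means and counts that it moved are given with and without it below. On chromosome X, Ezh2ΔSET replicate 2 had 17 K27me3 peaks and the other 5 mice 5637 to 7367. No gene of the family lies there, but the shares of all genes below include X.

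The tissue label was checked against cell type markers. K4me3 was seen in every mouse at all 10 acinar genes examined, which include Cpa1, Ptf1a and Bhlha15. K27me3 was absent from these 10 genes in all mice except control replicate 2, which had it at 3. Of 4 neural genes, absent from the label, 2 to 4 per mouse had K27me3, and K4me3 was seen at 0 or 1. Of 6 immune genes, 3 had K4me3 in control replicate 2 and 0 or 1 in the other 5 mice. In the 5 mice other than control replicate 2, K4me3 was present at 5 of 5 duct genes, 3 or 4 of 6 mesenchymal genes and 1 or 2 of 4 endothelial genes, and K27me3 at 0 or 1, 0 to 3 and 0 or 1 of them. Of 6 islet genes, Pax6, Neurod1 and Isl1 carried K27me3 in all 6 mice and K4me3 in 6, 5 and 6. Ins1 had K27me3 in 5 mice, Gcg in 1 and Ins2 in 0, and these 3 had no K4me3.

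K27me3 was present at a minority of the family in every mouse except control replicate 2. It marked 2, 18 and 5 of the 34 genes in control replicates 1, 2 and 3, and 3, 7 and 6 in Ezh2ΔSET replicates 1, 2 and 3. The means were 8.33 ± 8.50 and 5.33 ± 2.08 genes (SD, n = 3 mice each), a difference of -3 for Ezh2ΔSET minus control, and the groups overlapped. Without control replicate 2, Ezh2ΔSET mice had a mean of 1.83 more marked genes than the remaining control mice and still overlapped them. Over all genes, Ezh2ΔSET mice had K27me3 at 2758 to 3476 and control mice at 2370 to 5487. No test was made over the 34, because they were chosen with earlier results of these data known.

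K4me3 was steadier. It marked 21, 16 and 20 of the 34 genes in control mice and 17, 19 and 19 in Ezh2ΔSET mice. The means were 19 ± 2.65 and 18.3 ± 1.15 genes (SD, n = 3). Both marks were found at 1, 8 and 2 genes in control mice and at 1, 4 and 2 in Ezh2ΔSET mice, means of 3.67 ± 3.79 and 2.33 ± 1.53. As shares of the 34 these were 2.94%, 23.5% and 5.88% in control and 2.94%, 11.8% and 5.88% in Ezh2ΔSET mice. The shares of all genes with both marks were 2.22%, 12.4% and 3.83% in control and 3.96%, 3.16% and 4.94% in Ezh2ΔSET mice. Without control replicate 2 the difference in genes with both marks, Ezh2ΔSET minus control, turned from -1.33 to 0.833. The genotypes overlapped for K4me3 and for both marks. For K4me3 the overlap rested on control replicate 2. Without it the difference, Ezh2ΔSET minus control, went from -0.667 to -2.17 genes, with 21 and 20 genes in the remaining control mice. With a window of 1 kb or 10 kb, or with equal numbers of peaks, these 2 mice and the Ezh2ΔSET mice overlapped or tied. Over all genes, K4me3 marked 13871 and 13779 genes in these control mice and 13755, 13878 and 13756 in Ezh2ΔSET mice.

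**Figure D1:**
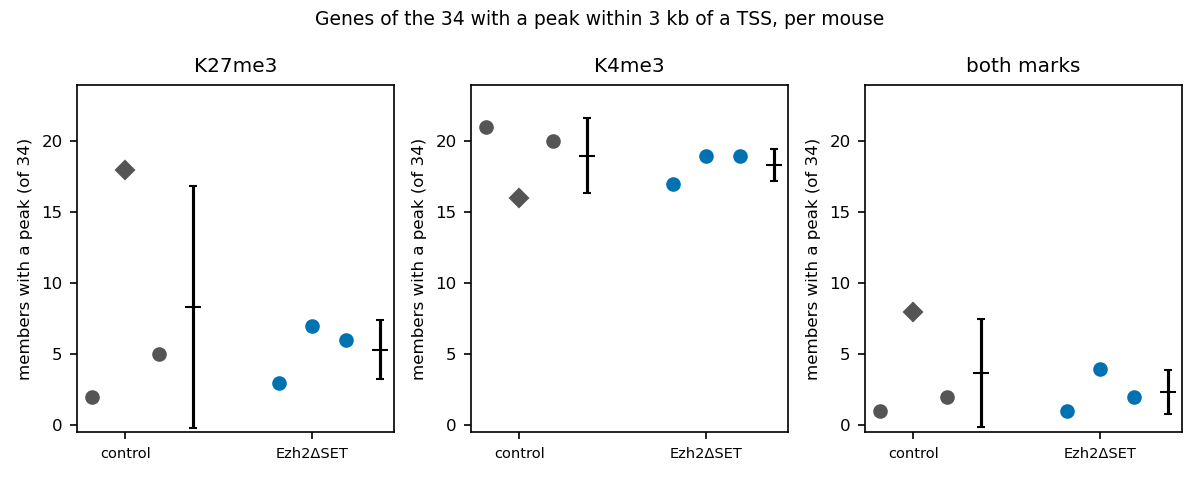
Number of the 34 genes (y axis) with a K27me3 peak, a K4me3 peak or both within 3 kb of a TSS, in control and Ezh2ΔSET mice. Each point is 1 mouse, the diamond is control replicate 2, and the black dash and bars are the mean and SD of 3 mice. For K27me3 the diamond, at 18 genes, lies above the other 5 mice (2 to 7 genes), and K4me3 lies between 16 and 21 genes in all mice.

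Counted over the 6 mice, K27me3 was never seen at 15 of the 34 genes (44.1%, against 66.9% of all genes). A further 12 genes (35.3%, against 11.5% of all genes) had it in control replicate 2 alone. These were Tgfb2, Tgfb3, Bmp2, Bmp6, Bmp7, Bmp8b, Gdf7, Inha, Inhbb, Nodal, Nog and Chrd. The remaining 7 (20.6%, against 21.6%) had it in at least 1 other mouse and were Bmp4, Bmp5, Gdf6, Gdf10, Inhba, Grem1 and Fst. K27me3 in at least 3 mice was found at 5 of these (14.7%, against 14.8%), all but Gdf10 and Fst, and Bmp5 and Gdf6 had it in all 6 (5.88%, against 3.62%). K4me3 was present in all 6 mice at 14 genes (41.2%, against 56.6%) and in none at 13 (38.2%, against 34.7%). Neither mark was seen in any mouse at 6 genes (17.6%, against 18.1%), Gdf2, Gdf3, Gdf5, Inhbc, Inhbe and Lefty2.

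**Figure D2:**
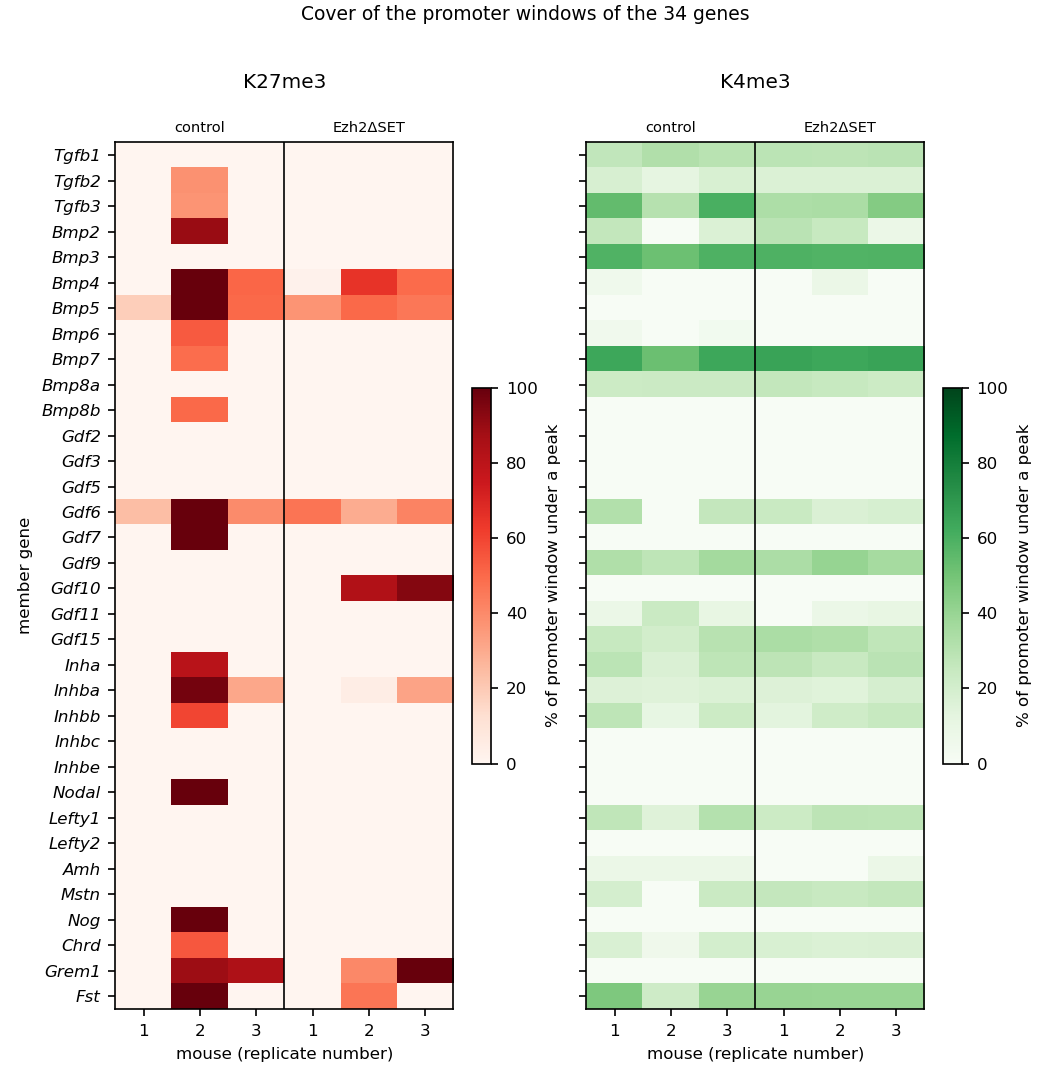
Share of each gene's promoter window (colour, 0% to 100%) under a K27me3 peak (left) or K4me3 peak (right) for the 34 genes (rows) in the 6 mice (columns, by genotype). The K4me3 panel shows 14 genes marked in all 6 mice. The K27me3 panel shows Bmp5 and Gdf6 marked in all 6, Gdf10 marked in 2 Ezh2ΔSET mice, and 12 genes marked in control replicate 2 alone.

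Which genes gained or lost K27me3 with the deletion of the SET domain was asked gene by gene. A gene was called when the mark was present in all 3 mice of a genotype and in 0 of 3 of the other. Fisher's exact test then gives a two-sided p of 0.1, the smallest that 3 against 3 allows, so no gene could reach 0.05. For Ezh2ΔSET against control, 0 members gained K27me3, beside 0.179% of all genes (0.184% of the 21143 autosomal genes), and 0 lost it, beside 0.00447%. The share of all genes called in either direction was 0.183% with all mice, 0.817% without control replicate 2 and 0.375% to 0.594% without any other single mouse. The count of members was 0 in each case except without Ezh2ΔSET replicate 1, where Gdf10, marked in the other Ezh2ΔSET mice and in no control mouse, was called. For K4me3, 0 members were called in either direction, beside 0.112% of all genes. Without control replicate 2, Bmp6 would meet the rule as lost, with K4me3 in control replicates 1 and 3 and in no Ezh2ΔSET mouse. Without Ezh2ΔSET replicate 3, Amh would do so. The shares of all genes called for K4me3 without these mice are not given here.

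Among the TGF-beta ligands, Tgfb1, Tgfb2 and Tgfb3 carried K4me3 over their own TSS in all 6 mice. Tgfb1, the most widely expressed of them and a driver of fibroblast activation, had 3070 to 3687 bp of its window under K4me3 and no K27me3 in any mouse. Tgfb2 and Tgfb3 had K27me3 in control replicate 2 alone, over 7399 and 2211 bp. The Tgfb3 peak did not cover the Tgfb3 TSS and did cover that of its neighbour Ift43. In that mouse K4me3 covered 2262 bp at Tgfb2, below the 3247 to 3557 bp of the other 5 mice.

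The BMP ligands, which pattern many embryonic tissues, differed in their marks. Bmp3, Bmp7 and Bmp8a had K4me3 over their own TSS in all 6 mice, and Bmp2 had K4me3 in 5, lacking it in control replicate 2. Bmp4, a ligand of mesoderm and gut patterning, and Bmp5 carried K27me3 in 5 and 6 mice. At Bmp4, 0, 9366 and 4788 bp of the 9366 bp window lay under K27me3 in control mice, and 197, 6092 and 4631 bp in Ezh2ΔSET mice. The unmarked mouse was control replicate 1, and the groups overlapped. The share of the window covered was 38.9% ± 32.8 in Ezh2ΔSET and 50.4% ± 50.004 in control mice (SD, n = 3 each, exact two-sided permutation p = 0.9, adjusted p = 1 over all genes). Without control replicate 2 the control mean was 25.6%, and the direction turned. Bmp4 also had a short K4me3 peak of 501 bp in control replicate 1 and of 765 bp in Ezh2ΔSET replicate 2, and neither covered a Bmp4 TSS.

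At Bmp5, K27me3 covered 2228, 12002 and 6001 bp of the 12002 bp window in control mice and 4445, 6001 and 5520 bp in Ezh2ΔSET mice. All 6 mice had the mark, 5 of them over a TSS, and the groups overlapped. The share covered was 44.3% ± 6.64 in Ezh2ΔSET and 56.2% ± 41.1 in control mice (SD, n = 3, exact permutation p = 0.8, adjusted p = 1). Without control replicate 2 the control mean was 34.3%, below that of Ezh2ΔSET. Bmp5 never had K4me3. Bmp2, Bmp6 and Bmp8b had K27me3 in control replicate 2 alone, over 5374, 7047 and 6001 bp. With a window of 10 kb Bmp6 was marked in 2 control and 3 Ezh2ΔSET mice. Bmp6 had a K4me3 peak over a TSS in control replicates 1 and 3 and in no other mouse. These peaks were 652 and 501 bp wide, at or near the smallest width, and with equal numbers of peaks no mouse had one. Bmp8a and Bmp8b, neighbouring copies of an ancestral gene, carried different marks. Bmp8a had K4me3 in 6 mice and K27me3 in none, and Bmp8b had K27me3 in 1 and K4me3 in none. Their 300-base promoters share 48.9% of aligned positions, and how reads that match both copies were placed is not stated in the sources used here.

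Gdf10, also called Bmp3b, had K27me3 in 2 of 3 Ezh2ΔSET and 0 of 3 control mice. It was the 1 member of 34 that differed by at least 2 mice for K27me3, a share near the 2.43% of all genes that did so in either direction. K27me3 covered 0 bp of its 6001 bp window in all 3 control mice and 0, 5001 and 5627 bp in Ezh2ΔSET mice. Ezh2ΔSET replicates 2 and 3 therefore lay above every control mouse, and replicate 1 lay with them. The share of the window covered was 59.0% ± 51.4 in Ezh2ΔSET against 0% in control (SD, n = 3 mice each, exact permutation p = 0.4, adjusted p = 1), so the difference did not pass the test.

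On mm10 the Gdf10 peaks were chr14:33921053-33926053 in Ezh2ΔSET replicate 2 and chr14:33919908-33926213 in replicate 3, with a second peak upstream in the latter, and in both mice a peak covered the TSS. The replicate 2 peak and the second peak had the smallest width, 5001 bp, and the other was 6306 bp wide. In the K27me3 lists of replicates 2 and 3, 38.9% and 34.8% of peaks had that smallest width. In the unmarked mice the nearest K27me3 peak lay 50390, 84325 and 16550 bp from the TSS in control replicates 1, 2 and 3, and 18464 bp in Ezh2ΔSET replicate 1. With windows of 1 kb and of 10 kb Gdf10 was again marked in 2 Ezh2ΔSET and 0 control mice. When K27me3 was sought up to 100 kb before the TSS, Gdf10 was marked in 3 Ezh2ΔSET mice and 1 control mouse, and with peaks of at least 10 kb alone in 0 mice of either genotype. No TSS of another gene fell within its window, and Gdf10 had no K4me3 in any mouse. Gdf10 was unmarked in control replicate 2, the mouse with the most marked genes.

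**Figure D3:**
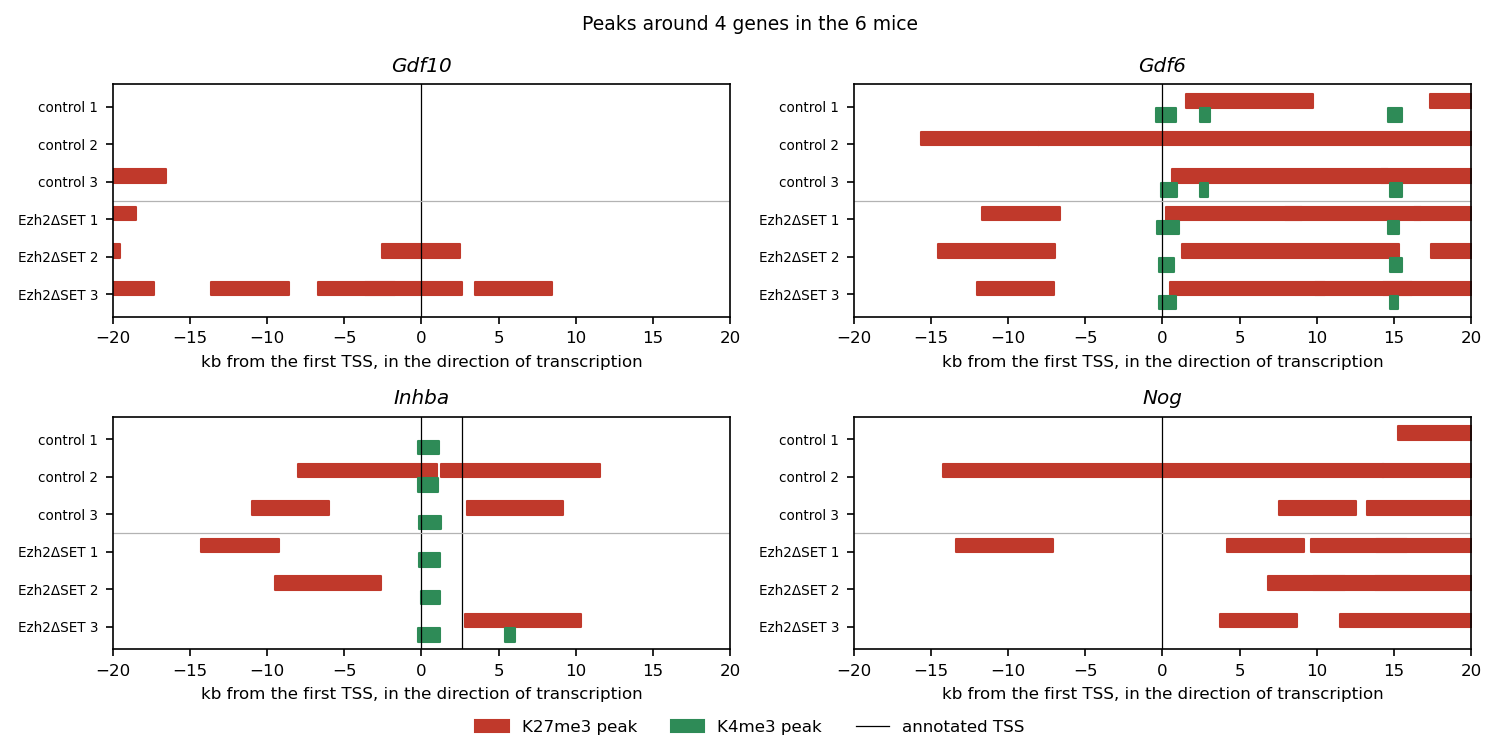
K27me3 peaks (red) and K4me3 peaks (green) within 20 kb of the first TSS of Gdf10, Gdf6, Inhba and Nog, 1 row per mouse, with distance in kb in the direction of transcription on the x axis and annotated TSSs as vertical lines. At Gdf10, red bars reach the 3 kb window in Ezh2ΔSET replicates 2 and 3 only. At Gdf6, no red bar covers the TSS in 5 mice, each with a green bar there and a red bar that begins just downstream, and red spans the TSS in control replicate 2. A further red bar lies upstream, outside the 3 kb window, in control replicate 2 and the 3 Ezh2ΔSET mice.

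Gdf6, which acts in joint and eye development, had K27me3 in all 6 mice. It covered 1452, 6001 and 2379 bp of its 6001 bp window in control mice and 2805, 1766 and 2531 bp in Ezh2ΔSET mice, and the groups overlapped. The share covered was 39.4% ± 8.97 in Ezh2ΔSET and 54.6% ± 40.1 in control mice (SD, n = 3, exact permutation p = 0.9, adjusted p = 1), and the control mean was 31.9%, the lower of the 2, without control replicate 2. K4me3 covered 1916, 0 and 1552 bp in control mice and 1432, 1022 and 1110 bp in Ezh2ΔSET mice. Thus 5 of 6 mice had both marks at Gdf6, with control replicate 2 lacking K4me3. The K4me3 peak covered the TSS in all 5. The K27me3 peak covered it in control replicate 2 and in the other mice began downstream. In 4 of these 5 mice the peaks of the 2 marks shared bases, and in 1 they lay 457 bp apart. The median overlap over the 5 was 583 bp. In control replicate 1 the shared bases lay in a second K4me3 peak, which began 2.42 kb downstream of the TSS. A further K4me3 peak lay 14.6 to 15.5 kb downstream of the Gdf6 TSS in 5 mice.

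The other GDF ligands carried 1 mark or none. Gdf7, a BMP-type ligand of the dorsal neural tube, had K27me3 without K4me3 in control replicate 2 alone, over all 6001 bp of its window. Gdf9, an oocyte factor, had K4me3 in all 6 mice, but the TSS of Uqcrq, a mitochondrial gene, lies in its window. Gdf11 had K4me3 in 5 mice, all but Ezh2ΔSET replicate 1, and Gdf15, a stress-induced cytokine, in all 6. In no mouse did the K4me3 peak cover a TSS of either. Mstn, the muscle growth inhibitor myostatin, had K4me3 in 5 mice, again never over its TSS.

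Inhba encodes the subunit of activin A. K4me3 covered 1277 to 1628 bp of its window, with a peak over a TSS in all 6 mice. K27me3 covered 0, 8376 and 2693 bp of its 8625 bp window in control mice and 0, 402 and 2783 bp in Ezh2ΔSET mice. Replicate 1 was the unmarked mouse in both genotypes, and the groups overlapped. The share covered was 12.3% ± 17.4 in Ezh2ΔSET and 42.8% ± 49.6 in control mice (SD, n = 3, exact permutation p = 0.7, adjusted p = 1). Leaving out control replicate 2 took the control mean to 15.6%. Outside control replicate 2, 3 mice had both marks at Inhba, and the peaks shared bases in 1 and lay 1669 and 2535 bp apart in 2. The 218 shared bp, in Ezh2ΔSET replicate 3, lay in a separate K4me3 peak that began 5.41 kb downstream of the first TSS, so the K4me3 peak over the TSS shared no base with K27me3 in these 3 mice. Over the family, outside control replicate 2, there were 10 cases of a gene with both marks in a mouse, at Gdf6, Inhba, Bmp4 and Fst. The peaks shared bases in 7 of them. In control replicate 2 there were 8 such genes, and the peaks shared bases at 7. Over all genes with both marks, 34.4% to 55.0% shared bases in the 5 other mice, and 69.3% in control replicate 2.

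Inha, the inhibin subunit, had K4me3 in all 6 mice, never over its own TSS, and the TSS of its neighbour Obsl1 lies in its window. Inhbb had K4me3 in all 6, and over a TSS in 4. Nodal, a ligand of early embryonic patterning, had no K4me3 and had K27me3 in control replicate 2 alone. Amh had K4me3 in 3 control mice and 1 Ezh2ΔSET mouse, over the smallest peak width of 501 bp and never over its TSS, and shares its window with Sf3a2. Lefty1, an inhibitor of Nodal, had K4me3 over its TSS in all 6 mice, 1182 to 2452 bp, and no K27me3, while Lefty2 had neither mark.

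The antagonists also differed among themselves. Chrd and Fst had K4me3 in all 6 mice, although the TSS of Thpo lies in the Chrd window. Nog and Grem1 had K4me3 in none. At Nog, K27me3 covered 0, 6001 and 0 bp of the 6001 bp window in control mice and 0 bp in all Ezh2ΔSET mice, so the mark rested on control replicate 2. The nearest K27me3 peak in Ezh2ΔSET mice lay 4182, 6826 and 3727 bp from the Nog TSS, and in control replicates 1 and 3 15226 and 7536 bp from it. With the 10 kb window Nog was marked in all mice but control replicate 1.

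At Grem1, K27me3 covered 0, 5324 and 5061 bp of the 6001 bp window in control mice and 0, 2437 and 6001 bp in Ezh2ΔSET mice. Replicate 1 was the unmarked mouse in both genotypes, and the groups overlapped. The share covered was 46.9% ± 50.3 in Ezh2ΔSET and 57.7% ± 50.005 in control mice (SD, n = 3, exact permutation p = 1, adjusted p = 1). With control replicate 2 left out, the control mean was 42.2% and the direction turned. Fst had K27me3 in 2 mice, over 10401 bp in control replicate 2 and 4821 bp in Ezh2ΔSET replicate 2, and in both mice a peak covered a TSS.

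**Figure D4:**
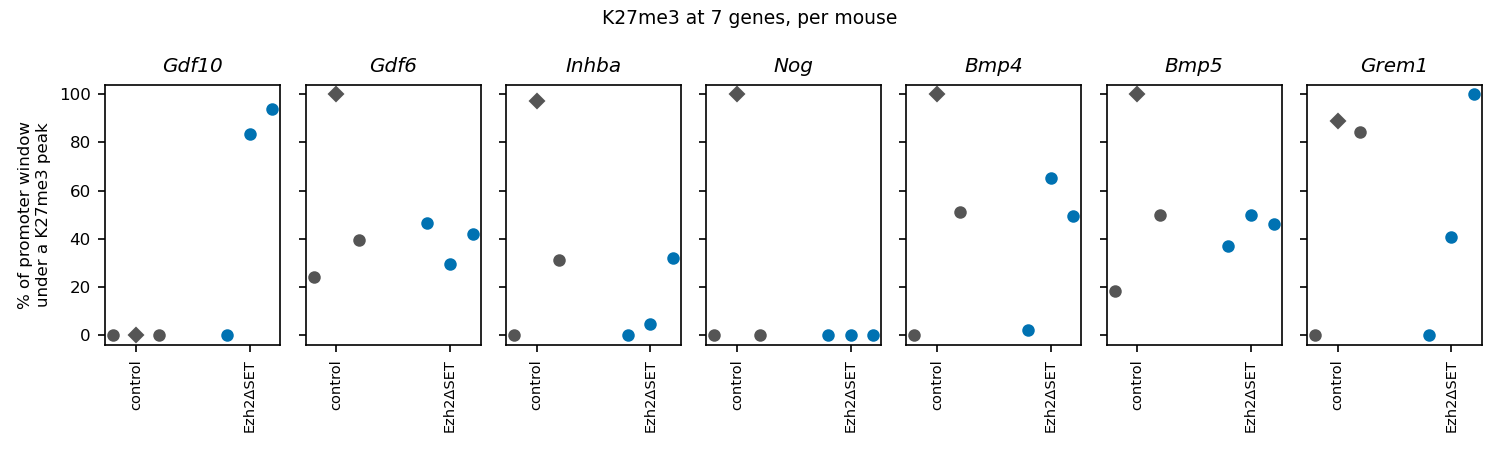
Share of the promoter window under a K27me3 peak (y axis, %) at 7 genes in each mouse, by genotype, with control replicate 2 as a diamond. At Gdf10 the control mice are at 0% and 2 Ezh2ΔSET mice lie above them, and at the other 6 genes the values of the genotypes overlap or tie, with the diamond at or near the top.

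The share of a window under a peak was also compared as a graded measure. Genes whose 3 Ezh2ΔSET mice all lay above or below the 3 control mice were counted, and the members named here were picked after their values were seen. For K27me3, 0 members were higher, beside 0.701% of all genes, and 0 lower, beside 0.103%. For K4me3, Ezh2ΔSET was higher at 2 members, Bmp7 and Mstn, beside 6.01% of all genes, and lower at 0, beside 1.38%. At Bmp7, K4me3 covered 3976, 3247 and 3982 bp in control and 4078, 3989 and 4071 bp in Ezh2ΔSET mice. These were 60.0% ± 6.78 and 64.9% ± 0.794 of the window (SD, n = 3, exact permutation p = 0.1, the smallest possible, adjusted p = 1). At Mstn, control mice had 1173, 0 and 1416 bp and Ezh2ΔSET mice 1558, 1463 and 1578 bp, or 14.3% ± 12.6 and 25.5% ± 1.02 of the window (exact permutation p = 0.1, adjusted p = 1). Control replicate 2 was the lowest mouse at both genes, and without it the control means were 63.9% at Bmp7 and 21.5% at Mstn. The 2 of 34 (5.88%) is near the share over all genes. Without control replicate 2, Bmp7 and Mstn stayed higher, and Ezh2ΔSET mice also all lay below the remaining control mice at Tgfb2, Tgfb3, Bmp6 and Gdf6. The means at these were 16.6%, 37.7%, 0% and 19.8% in Ezh2ΔSET and 17.9%, 57.4%, 4.42% and 28.9% in those control mice. The share of all genes without that mouse is not given here.

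Promoter sequence was read from RefSeq (GRCm38.p6), which held 21 of the 34 genes in the table used. Polycomb marks are known to favour CpG-rich starts, so the CG dinucleotide, which reads the same on both strands, was counted. Of 17260 promoters, 92.9% hold at least 1 CG in the 250 bases before the start, and the median is 10. A few are printed 5′ to 3′ on the strand of the gene, with each CG in capitals, to show the range among genes with K27me3 and 1 gene with K4me3 alone. They are Gdf10 at chr14:33923337-33923586 (plus strand), Grem1 at chr2:113758649-113758898 (minus), Bmp5 at chr9:75775115-75775364 (plus), Inhba at chr13:16011601-16011850 (plus) and Tgfb1 at chr7:25686752-25687001 (plus).
Gdf10: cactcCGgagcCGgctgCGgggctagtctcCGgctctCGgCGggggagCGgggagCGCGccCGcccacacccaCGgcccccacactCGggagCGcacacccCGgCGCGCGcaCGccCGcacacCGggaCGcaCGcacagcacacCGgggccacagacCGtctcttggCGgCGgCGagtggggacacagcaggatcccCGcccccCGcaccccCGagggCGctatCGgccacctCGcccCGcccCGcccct
Grem1: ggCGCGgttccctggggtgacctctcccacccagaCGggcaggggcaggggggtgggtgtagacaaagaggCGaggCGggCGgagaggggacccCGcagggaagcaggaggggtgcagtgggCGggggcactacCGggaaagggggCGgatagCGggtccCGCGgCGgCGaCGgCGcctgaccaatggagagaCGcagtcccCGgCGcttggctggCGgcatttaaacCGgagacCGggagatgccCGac
Bmp5: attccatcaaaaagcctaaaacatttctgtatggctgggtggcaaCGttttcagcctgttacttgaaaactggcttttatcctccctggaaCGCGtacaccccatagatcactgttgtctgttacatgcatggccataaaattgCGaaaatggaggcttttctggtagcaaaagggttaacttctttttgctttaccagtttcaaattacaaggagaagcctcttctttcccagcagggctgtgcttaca
Inhba: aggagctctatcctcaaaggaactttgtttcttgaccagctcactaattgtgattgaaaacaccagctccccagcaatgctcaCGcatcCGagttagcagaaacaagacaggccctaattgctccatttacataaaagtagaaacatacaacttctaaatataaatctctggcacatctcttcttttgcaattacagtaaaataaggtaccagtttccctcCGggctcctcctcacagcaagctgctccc
Tgfb1: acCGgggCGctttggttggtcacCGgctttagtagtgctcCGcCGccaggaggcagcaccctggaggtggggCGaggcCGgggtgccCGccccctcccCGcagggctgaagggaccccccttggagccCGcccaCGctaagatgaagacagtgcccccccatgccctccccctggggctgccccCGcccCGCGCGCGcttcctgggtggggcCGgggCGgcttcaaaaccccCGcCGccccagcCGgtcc

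The Gdf10 stretch holds 35 CG, a number that 3.56% of promoters reach. Grem1 holds 24 (15.0% reach it) and Tgfb1 21 (21.1%). Bmp5 holds 4 (70.6%) and Inhba 3 (76.9%), so the genes with K27me3 within 3 kb included both CG-rich and CG-poor starts. At Bmp5 a K27me3 peak covered a TSS in 5 of 6 marked mice. At Inhba it did so in 1 of 4, control replicate 2, so the mark mostly lay off the printed Inhba stretch. The RefSeq starts of Grem1 and Bmp5 are not among the GENCODE starts used for the windows. In the full 300 bases, which run 50 bases past the start, the 5 members with K27me3 outside control replicate 2 had a median of 12 CG (range 4 to 42), and the 3051 autosomal genes with that pattern had a median of 4. The 9 members with K4me3 in at least 5 mice and no K27me3 outside control replicate 2 had a median of 15, against 21 over 9534 such autosomal genes. The median over all 21 members was 12 and over all autosomal promoters 14. Of the 13 genes without an entry, Gdf6 and Fst belong to the K27me3 set.

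The rest of the pathway was examined from lists of receptors, Smads, targets and other antagonists. Of 14 receptor genes, 12 had K4me3 in all 6 mice. K27me3 was found at 6 receptors in control replicate 2 and at 0 of 14 in the other 5 mice. Of 8 Smad genes, 7 had K4me3 in all mice, and K27me3 was seen at Smad6 alone, again in control replicate 2. Of 13 targets and feedback genes, 11 had K4me3 in all mice and 3 had K27me3 outside control replicate 2. Bambi, a pseudoreceptor that dampens signalling, had K27me3 in 3 of 3 Ezh2ΔSET mice and, among control mice, in replicate 2 alone. A difference of at least 2 mice was seen at 2.43% of all genes. Without control replicate 2, Bambi would meet the rule for a call. Id4 had K27me3 in 2 mice of each genotype and Ccn2 in 1 of each, and all 3 genes had K4me3 in all 6 mice.

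Of 15 further antagonists and latent TGF-beta binding proteins, 3 had K27me3 outside control replicate 2. Ltbp2, which belongs to the latent TGF-beta binding family, had it in 3 control and 2 Ezh2ΔSET mice, and Ltbp1 in 1 of each. Chrdl1, a BMP antagonist on chromosome X, had K27me3 in 3 control and 2 Ezh2ΔSET mice, and the unmarked Ezh2ΔSET mouse was replicate 2, which has 17 K27me3 peaks on X. None of the genes in these 4 lists was called with all mice. K27me3 in mice other than control replicate 2 was thus found at 7 of the 34 ligand and antagonist genes (20.6%, near the 21.6% of all genes), 0 of 14 receptors, 0 of 8 Smads, 3 of 13 targets and 3 of 15 other antagonists.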

How the data were processed

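Per the study's methods, reads were aligned to mm10 (bowtie2) and HOMER findPeaks, run in its histone mode, compared each antibody library with its own input. The authors deposited 1 list of peak positions per library, with a score of 1 in every line, and 12 lists were used (K27me3 and K4me3, 6 mice). The study's other genotypes are not reported here. Input libraries and RNA-Seq were not used here. Tool versions are not given in the sources used here.

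Peaks were compared with every TSS of 22392 genes of GENCODE vM21 with an Entrez identifier, of 55450 in all. Windows of 1 gene that overlap were merged. No 2 lists were identical. Members were described by presence per mouse, by the call of 3 mice against 0 and by the percent of the window covered, with an exact two-sided permutation test and Benjamini-Hochberg adjustment over all genes. Members given with values in each mouse were those with K27me3 in all 3 mice of a genotype and those with both marks in at least 3 of the 6 mice, a number set for these mice after the values were seen. Gdf10, Gdf7, Fst, Nog, Grem1, Bmp7 and Mstn were added after their values were seen. The 34 members and the gene lists were chosen with earlier results of these data known. Mice of a group are separate animals per the labels. Alternatives were other windows, overlaps, TSSs and equal numbers of peaks, each mouse left out, and 2 width limits chosen after seeing the data. Overlap and calling code was tested on simulated peaks. Python 3.11.15, numpy 2.4.6, pandas 2.3.3, statsmodels 0.14.6 and biopython 1.88 were used.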

Additional observations from a re-analysis of the deposited data

How the results depend on the processing

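Leaving out 1 mouse or loosening the rule changed the count of members called for K27me3 in Ezh2ΔSET against control. The count of 0 became 1 (Gdf10) when a difference of at least 2 mice sufficed, which called 2.43% of all genes. Leaving out each mouse gave 0 to 1, with Gdf10 called without Ezh2ΔSET replicate 1 (0.375% of all genes). Both calls of Gdf10 follow from its mark in 2 Ezh2ΔSET and 0 control mice and are not separate support. The count was 0 with windows of 1 kb, 10 kb or from 100 kb upstream to 3 kb downstream, with an overlap of 500 bp, with 1 TSS per gene and with equal numbers of peaks. In all, 23 values with a mouse left out, 28 with other planned settings and 8 with settings chosen after seeing the data stayed within the spread between mice or kept their count, although without control replicate 2 the mean difference, Ezh2ΔSET minus control, went from -0.667 to -2.17 genes with K4me3, and turned from -3 to 1.83 genes with K27me3 and from -1.33 to 0.833 genes with both marks. The K4me3 difference turned to 0.333 with windows of 1 kb and 10 kb and without control replicate 1, and to 0.667 without peaks of 501 bp. Some settings in these tallies could not change a value, such as the longer K27me3 window for K4me3 counts and the replicate number used as a block. Those values do not bear on stability. Alternatives were run for this comparison only. Depth is unknown, and a lack of a peak does not show a lack of the mark.

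Whether the replicate numbers pair the mice across genotypes could not be told. Correlations of the deviations of same-numbered mice from their group means ran from -0.0754 to 0.0478 for K27me3 and from 0.0497 to 0.227 for K4me3. No correlations of mice with different numbers stand beside these, so they cannot decide the question. With the replicate number as a replicate block, the mean difference is the same by construction (-3 genes with K27me3), and the rule of 3 mice against 0 cannot change under a block, so neither bears on the pairing.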
